A study of Mus musculus with 5 samples.

Results

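Glycolysis enzymes were followed through the segments of the mouse kidney with 8 genes, chosen by name: the hexokinases Hk1 and Hk2, the phosphofructokinases Pfkp and Pfkl, the aldolase Aldoa, the pyruvate kinase gene Pkm and the lactate dehydrogenases Ldha and Ldhb. They were 8 of 22980 genes over the 2 count tables, and all 8 were in both. UMI counts were summed for each cell class of the authors' annotation in each library and scaled to a total of 1000000 UMIs (CPM). The 5 libraries were 1 of whole cells from healthy kidney (Drop-seq), 3 of nuclei from healthy kidney (DroNc-seq, sNucDrop-seq and the 10x system), and 1 of 10x nuclei from kidney on day 14 of unilateral ureteral obstruction (UUO). UUO ties off a ureter and leads to tubular injury and fibrosis. The labels give the C57BL/6 strain in the protocol for cell dissociation. The sources used here do not say how many mice each library held or whether tissue was pooled.

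Glycolysis splits glucose into pyruvate in the cytosol. Hexokinase traps glucose in the cell, phosphofructokinase commits it to the pathway, aldolase cleaves the sugar, pyruvate kinase makes pyruvate, and lactate dehydrogenase converts pyruvate and lactate into each other. In the healthy kidney the proximal tubule is known for making glucose and burning fatty acids, whereas segments beyond it use more glucose. Ldha encodes the subunit of lactate dehydrogenase tied to lactate production and Ldhb the subunit tied to lactate use, and Hk2 is the hexokinase known to be inducible by growth signals and hypoxia.

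Each group had 1 library, so no difference has a replicate check and no test was made. Libraries held 2947137 to 7411036 UMIs over 2084 to 6147 barcodes, with medians of 1055 to 1630 UMIs a barcode. Intervals are exact 95% intervals (Poisson for a level, binomial for a share, conditional on the total for a ratio) and reflect counting error alone. A gene counted as measured in a comparison where the 2 sums held at least 20 counts and both libraries listed it, and it is called higher or lower where it was at least 2-fold apart with an interval clear of 0. The healthy 10x and UUO libraries had 23 barcode sequences in common. They also differed in sex-linked transcripts: Xist stood at 1321 CPM in the healthy 10x and 1309 CPM in the DroNc-seq nuclei, at 0.405 CPM in UUO and at 0 in the other healthy libraries, while the sum of 4 Y-linked genes was 3.73 CPM in the healthy 10x nuclei and 619 CPM in UUO. Sex, surgery and library cannot be told apart in the comparison of the 2 10x libraries. Proximal tubule markers were highest in the proximal tubule class of each library, but their summed level there was 15261 CPM in healthy 10x and 1218 CPM in UUO nuclei. The thick ascending limb list stood at 22179 and 1548 CPM in its own class. The principal cell list stood at 316 CPM in the UUO class of that label, below its level in the UUO connecting tubule, so the label was not borne out by these markers there. The same held for the descending limb label in Drop-seq (127.5 CPM) and DroNc-seq (37.0 CPM), where its list was highest in endothelium. Values given below for UUO principal cells are those of nuclei with that label, whose cell type these markers did not bear out.

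Promoters of 4 of the genes are shown because the values that follow turn on the pairs Hk1 and Hk2, and Ldha and Ldhb. Each is the 250 bases before a RefSeq gene start (GRCm38.p6), read 5′ to 3′ on the gene's strand. Capitals mark ACGTG or its reverse complement CACGT, the core of the element that hypoxia-inducible factors bind. Where CACGTG occurs, both strands match and the matches overlap.
Hk1, chr10:62340422-62340671, minus strand: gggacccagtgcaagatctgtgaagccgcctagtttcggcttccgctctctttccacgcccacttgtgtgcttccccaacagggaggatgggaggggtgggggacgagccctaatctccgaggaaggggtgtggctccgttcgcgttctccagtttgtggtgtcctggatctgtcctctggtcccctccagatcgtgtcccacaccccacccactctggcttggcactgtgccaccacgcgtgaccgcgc
Hk2, chr6:82774455-82774704, minus strand: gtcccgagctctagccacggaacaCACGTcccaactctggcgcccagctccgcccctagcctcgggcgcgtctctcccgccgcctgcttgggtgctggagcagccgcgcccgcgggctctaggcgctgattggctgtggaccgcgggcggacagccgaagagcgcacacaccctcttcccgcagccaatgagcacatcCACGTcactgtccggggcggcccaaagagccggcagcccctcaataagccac
Ldha, chr7:46845554-46845803, plus strand: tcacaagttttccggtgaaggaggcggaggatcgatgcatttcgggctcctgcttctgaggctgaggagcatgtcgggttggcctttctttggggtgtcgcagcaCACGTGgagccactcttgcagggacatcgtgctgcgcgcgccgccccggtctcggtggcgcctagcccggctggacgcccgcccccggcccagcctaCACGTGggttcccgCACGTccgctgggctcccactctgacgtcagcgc
Ldhb, chr6:142507958-142508207, minus strand: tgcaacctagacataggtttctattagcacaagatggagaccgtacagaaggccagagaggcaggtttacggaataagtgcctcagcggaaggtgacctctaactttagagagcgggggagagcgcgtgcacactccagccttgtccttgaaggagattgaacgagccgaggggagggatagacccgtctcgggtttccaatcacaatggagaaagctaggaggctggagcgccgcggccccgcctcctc
The Hk2 window held 2 matches, starting 226 and 52 bases before the gene start. The Ldha window held 5, of which 4 lie in 2 overlapping pairs. The Hk1 and Ldhb windows held 0, as did the window of the other Hk1 start and that of the other Ldha start. Of the 4 genes not shown, Pkm had 1 match in 1 of its 2 windows, and Pfkp and Pfkl had 0. Aldoa had 1 in each of 2 of its 3 windows, which overlap and hold the same match. Matches were thus not limited to Hk2 and Ldha. Of all 32851 such windows, 16.6% held at least 1 match. A match is a description of the letters and not a binding site.

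In healthy kidney Hk1, Pfkp and Pkm, of the pathway's entry, commitment and last steps, were low in the proximal tubule and higher beyond it, while Ldha leaned the other way. The ascending limb, distal convoluted tubule, connecting tubule, principal cells and intercalated cells were summed as the distal tubule and compared with the proximal tubule inside each library. These 3 genes were called higher in the distal tubule of all 4 healthy libraries. Calls numbered 4 of 7 measured members in Drop-seq, where 12.6% of all genes were called higher, 4 of 7 in the healthy 10x nuclei (13%), 5 of 7 in DroNc-seq (10.5%) and 3 of 7 in sNucDrop-seq (9.83%). None of the 8 was called lower in these libraries, where 9.65%, 12.6%, 9.31% and 8.29% of genes were.

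Hk1, whose protein sits on the outer mitochondrial membrane, stood at 73.4 CPM in the distal tubule and 5.09 CPM in the proximal tubule of the Drop-seq cells, a log2 ratio of 3.85 (interval 3.20 to 4.53). In nuclei the same gene stood at 526 and 81.7 CPM (healthy 10x), 153 and 24.0 CPM (sNucDrop-seq) and 147 and 21.1 CPM (DroNc-seq). These 3 ratios of 2.69, 2.68 and 2.80 lay close together although the levels did not. In the healthy 10x nuclei the proximal tubule held the thick ascending limb marker list at 8.67% of its level in the ascending limb, and Hk1 at 11.9%. In Drop-seq these were 1.16% and 6.23%. How far free RNA from other classes adds to such low levels was not tested.

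Among healthy 10x classes of at least 100000 UMIs, Hk1 was highest in the ascending limb at 688 CPM (625 to 754), a level clear of the next, the connecting tubule at 420 CPM (334 to 523). Principal cells (412 CPM), intercalated cells (382 CPM) and the distal convoluted tubule (365 CPM) followed with overlapping intervals, then the descending limb at 283 CPM and podocytes at 232 CPM. The proximal tubule was lowest at 81.7 CPM (66.2 to 99.6), clear of podocytes. Over 18 classes of the 2 10x libraries, the genes whose levels ran most like those of Hk1 were Dock8 (Pearson r 0.937), Rgs6 (0.925) and Casz1 (0.913), among 7232 genes compared. The classes come from 2 libraries, healthy 10x and UUO, and those of the same library share its depth. The correlations do not separate a difference between the libraries from one between classes. The values are descriptions.

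Pfkp, the platelet-type phosphofructokinase, stood at 37.9 CPM in the distal and 2.88 CPM in the proximal tubule of Drop-seq cells (log2 ratio 3.71). In nuclei the ratios were 1.57 (healthy 10x), 1.93 (sNucDrop-seq) and 2.12 (DroNc-seq). Pfkl, the liver-type enzyme, was sparse: its 12 and 40 counts in the healthy 10x proximal and distal tubule gave 10.1 and 28.0 CPM. Its ratio was called higher in Drop-seq (1.57) and healthy 10x (1.47), and was 0.48 and 0.04 in the other nuclei. As a share of the pair, Pfkp made up 40.5% of Pfkp and Pfkl counts in Drop-seq proximal tubule (25.6 to 56.7) and 73.3% in the tubule outside it (58.1 to 85.4). DroNc-seq nuclei had 64.1% (52.4 to 74.7) and 89.3% (82.7 to 94.0). The intervals overlapped in sNucDrop-seq nuclei, at 64.3% and 83.1%, and the healthy 10x shares of 82.4% and 82.9% were nearly equal.

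Pkm, which encodes the pyruvate kinase of most tissues outside liver and proximal tubule, had the widest ratio in whole cells. It stood at 182 CPM in the distal and 4.58 CPM in the proximal tubule of Drop-seq, a log2 ratio of 5.32 (4.72 to 5.96). Its ratios in nuclei were 1.52 (healthy 10x), 1.98 (sNucDrop-seq) and 1.84 (DroNc-seq). Aldoa, the aldolase of glycolysis, was more even, with 263 and 131 CPM in Drop-seq and 56.8 and 42.9 CPM in healthy 10x. Its ratio passed 2-fold in DroNc-seq alone among the healthy libraries (27.9 and 13.6 CPM, log2 ratio 1.04).

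The lactate dehydrogenase genes had ratios of opposite sign in all 4 healthy libraries. Ldhb stood at 1990 CPM in the distal and 1080 CPM in the proximal tubule of Drop-seq. The nuclei stood at 230 and 116 CPM (healthy 10x), 387 and 223 CPM (sNucDrop-seq) and 380 and 189 CPM (DroNc-seq). These ratios, 0.88, 0.98, 0.79 and 1.01 on the log2 scale, all had intervals above 0. Ldha stood at 124 and 222 CPM in Drop-seq (log2 ratio -0.84, -1.14 to -0.56) and at 34.3 and 59.8 CPM in healthy 10x (-0.80, -1.36 to -0.25). In sNucDrop-seq and DroNc-seq its ratios were -0.41 and -0.24, with intervals that held 0.

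**Figure D1:**
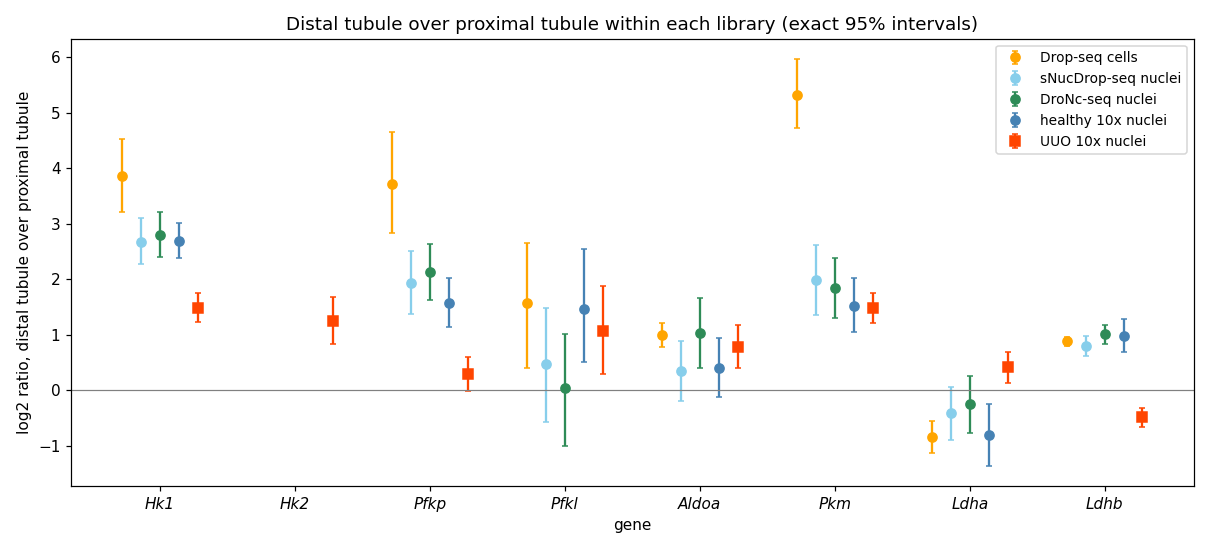
Log2 ratio of the distal tubule to the proximal tubule for each gene inside each of the 5 libraries (colours, UUO as squares), with exact intervals; genes not measured in a library have no point. Hk1, Pfkp and Pkm lie above 0 in the 4 healthy libraries, and Ldha and Ldhb lie on opposite sides of 0 in the healthy libraries and change sides in UUO. The UUO distal sum holds the principal cell label, which its markers did not bear out.

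Within the UUO library the same contrast gave another picture for Hk1, Pfkp, Ldha and Ldhb. Ldhb stood at 165 CPM in the distal and 231 CPM in the proximal tubule (log2 ratio -0.49, -0.65 to -0.32). Ldha stood at 76.2 and 57.2 CPM (0.41, 0.13 to 0.70). Neither passed 2-fold, and in both the interval lay on the other side of 0 from the healthy ratios whose intervals were clear. The UUO distal sum holds the principal cell label, which its markers did not bear out. That label gave 53 of the Ldha counts, at 120 CPM, and 40 of the Ldhb counts. How far the 2 ratios rest on it was not tested. Pfkp stood at 65.0 and 53.1 CPM (0.29, -0.01 to 0.59), below the ratio in each healthy library. Hk1, Hk2, Pfkl and Pkm were called higher in the distal tubule, 4 of 8 measured members where 10.7% of genes were called, and 0 were called lower (7.11%). The Hk1 ratio was 1.49 (1.23 to 1.75), below that of each healthy library with intervals apart, and the Pkm ratio 1.49 (1.22 to 1.76). The thick ascending limb list in the UUO proximal tubule stood at 3.86% of its level in the ascending limb, and Hk1 at 40.1%.

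Hk2 had its highest level in the UUO library. It had 250 counts there, in 209 of 6147 nuclei, or 33.7 CPM (29.7 to 38.2). In healthy kidney it had 5 counts in sNucDrop-seq nuclei (1.08 CPM) and 0 in Drop-seq cells, which allows up to 0.437 CPM if 3 counts are taken as the limit, and it was listed at 0 in the DroNc-seq and healthy 10x nuclei. The commonest number of barcodes per gene was 11 in the healthy 10x library and 10 in DroNc-seq. Rare genes may thus have been filtered in both, and a 0 there is given no fold. Against sNucDrop-seq nuclei the log2 ratio over all nuclei was 4.97 (3.72 to 6.60), where 18.6% of genes were called higher. In the proximal tubule it was 4.33 (2.72 to 6.64), on 76 counts in UUO and 3 in sNucDrop-seq, where 19.5% of genes were called higher.

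Hk2 reached most tubule classes of the UUO kidney. It stood at 74.5 CPM in principal cells (51.3 to 105), 59.6 in the ascending limb (44.2 to 78.6), 58.4 in the descending limb, 50.8 in the connecting tubule, 35.2 in the distal convoluted tubule and 20.9 in the proximal tubule (16.5 to 26.2). Neighbours in that order overlapped, while the proximal tubule lay below both limbs of Henle's loop, the connecting tubule and principal cells with intervals apart. Intercalated cells had 1 count over 295 nuclei, or 3.76 CPM (0.0952 to 20.9), below the ascending limb, the connecting tubule, the distal convoluted tubule, the descending limb and principal cells. Outside the tubule, the fibroblast label Fib.1 stood at 46.7 CPM (13 counts), endothelium at 27.6 CPM (7 counts), macrophages at 63.7 CPM (4 counts) and podocytes at 0 of 98180 UMIs, which by the same limit of 3 counts allows up to 30.6 CPM.

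Inside the UUO proximal tubule, Hk2 was called higher in 1 cell state. The 81 nuclei labelled proliferating stood at 69.2 CPM on 15 counts and the S1 to S3 labels together at 16.7 CPM, a log2 ratio of 2.05 (1.12 to 2.89). Of 10249 genes, 5.27% were called higher in that contrast. The dedifferentiated label stood at 36.0 CPM on 7 counts, with an interval that held 0 (1.10, -0.28 to 2.24). Because a share of 2 genes does not depend on scaling, the hexokinase pair was also read as Hk1 over Hk1 and Hk2. In sNucDrop-seq nuclei, where Hk2 was listed, 95.8% of the pair's proximal tubule counts were Hk1 (69 of 72, 88.3 to 99.1), as were all 83 ascending limb counts. The healthy 10x and DroNc-seq nuclei list Hk2 at 0 and give no such share. In UUO, Hk1 made up 71.0% in the proximal tubule (65.1 to 76.4), 68.2% in the ascending limb (60.3 to 75.4), 67.6% in principal cells, 48.0% in Fib.1 and 98.3% in intercalated cells (57 of 58 counts).

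Hk1 itself had a ratio of UUO to healthy 10x nuclei below 0 in each of the 9 classes compared, with every interval below 0, and was called lower in 7 of the 9. Ascending limb nuclei stood at 128 CPM in UUO and 688 CPM in healthy 10x, 5.39-fold lower (log2 ratio -2.43, -2.75 to -2.12). It stood at 106 and 365 CPM in the distal convoluted tubule (-1.79), at 161 and 420 CPM in the connecting tubule (-1.39), at 156 and 412 CPM in principal cells (-1.40), at 100 and 283 CPM in the descending limb (-1.50), at 61.1 and 232 CPM in podocytes (-1.92) and at 138 and 314 CPM in endothelium (-1.19). Intercalated cells (214 and 382 CPM, -0.84) and the proximal tubule (51.2 and 81.7 CPM, -0.67) did not reach 2-fold. Split by label, the S1 and S2 segments stood at 32.2 and 85.6 CPM (-1.41), called lower as 18.9% of genes were, and S3 at 109 and 77.0 CPM (0.50, -0.06 to 1.07).

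The Hk1 result rested on the healthy 10x library. That library's Hk1 level was above that of the other healthy nuclei, at 688 CPM against 220 CPM (sNucDrop-seq) and 165 CPM (DroNc-seq) in the ascending limb, and at 81.7 against 24.0 and 21.1 CPM in the proximal tubule. With sNucDrop-seq as the reference, the UUO ratio of Hk1 was -0.79 in the ascending limb and 1.09 in the proximal tubule, where it was then called higher. The UUO level of 51.2 CPM in the proximal tubule lay between the healthy libraries. Platform and condition are not separated in those comparisons, since UUO was sequenced on 10x alone.

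**Figure D2:**
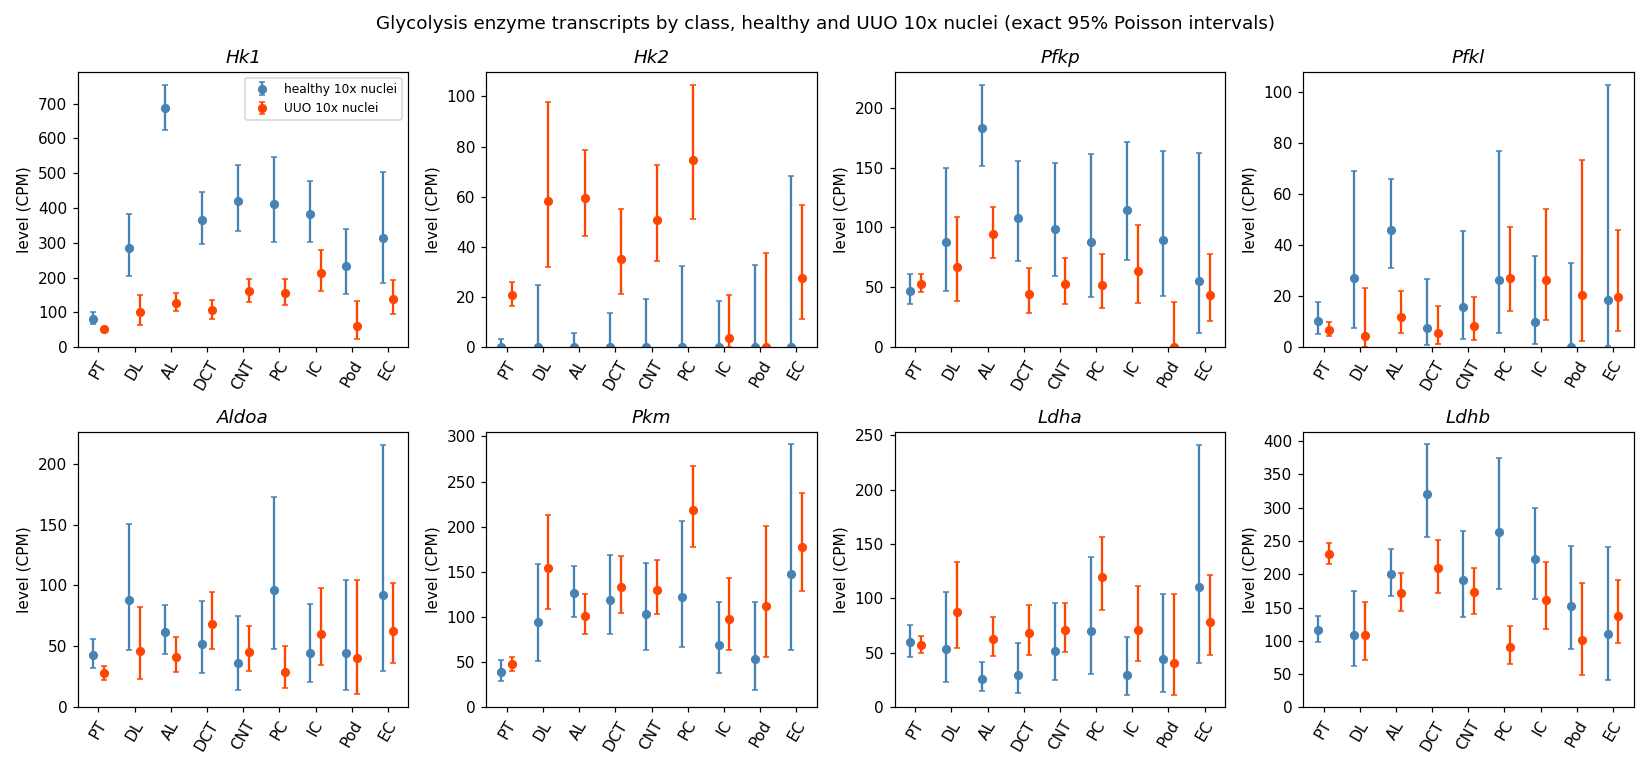
Levels of the 8 genes in 9 classes of the healthy 10x (blue) and UUO (orange) nuclei, in CPM on linear axes from 0 with exact Poisson intervals; PT is proximal tubule, DL descending limb, AL ascending limb, DCT distal convoluted tubule, CNT connecting tubule, PC principal cells, IC intercalated cells, Pod podocytes and EC endothelium. Hk2 is listed at 0 in the healthy 10x nuclei, where rare genes may have been filtered. Hk1 in the ascending limb is at 688 CPM in healthy 10x and 128 CPM in UUO nuclei. The sNucDrop-seq and DroNc-seq nuclei, not drawn, had 220 and 165 CPM there.

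Over the 8 genes and 9 classes, 51 of 72 pairs were measured between UUO and healthy 10x nuclei. Of these 2 were called higher, both Ldha, and 11 lower, 7 of them Hk1. In the proximal tubule 0 of 7 measured members were called, where 13.1% of genes were called higher and 19.7% lower. The ascending limb had 1 higher (14.7% of genes) and 2 lower (15.9%), and the distal convoluted tubule 1 higher (17.8%) and 2 lower (12.9%). Principal cells had 0 higher (13.6%) and 3 lower (11.3%) of 6 measured. The descending limb, connecting tubule, podocytes and endothelium each had 1 lower, Hk1 (11.7%, 11.5%, 12.9% and 8.81% of genes), and 0 higher (9.78%, 19.2%, 10.5% and 11.2%). Intercalated cells had 0 called either way (12.9% and 10.3%). The median over all genes measured lay between -0.10 and 0.25 in these classes.

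Pfkp stood at 44.5 CPM in the UUO distal convoluted tubule and 108 CPM in the healthy 10x one, called lower at -1.28 (-2.12 to -0.45). The UUO level lay between those of sNucDrop-seq (33.8 CPM, 7 counts, ratio 0.40) and DroNc-seq nuclei (71.4 CPM, 21 counts). The ascending limb stood at 94.2 and 183 CPM (-0.96), just inside 2-fold, with 71.6 CPM in sNucDrop-seq and 101 CPM in DroNc-seq nuclei. In the proximal tubule Pfkp stood at 53.1 and 47.2 CPM (0.17, -0.26 to 0.63). Pfkl was called lower in the ascending limb on 10 and 30 counts (11.9 and 46.1 CPM, -1.95). That call rested on the healthy 10x library, since the UUO level lay between sNucDrop-seq (13.3 CPM) and DroNc-seq nuclei (9.39 CPM). The Pfkp share of the pair was 79.9% in the healthy (72.5 to 86.0) and 88.8% in the UUO ascending limb (80.3 to 94.5), with overlapping intervals.

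Aldoa was called lower in principal cells, at 29.3 and 96.4 CPM (-1.72, -2.99 to -0.42), on 13 and 11 counts. The UUO level lay between those of sNucDrop-seq (8.42 CPM, 1 count) and DroNc-seq principal cells (43.6 CPM, 5 counts). In the proximal tubule Aldoa stood at 27.8 and 42.9 CPM (-0.63, -1.13 to -0.11). Pkm was not called in any class. It stood at 219 and 123 CPM in principal cells (0.84, 0.02 to 1.76), at 101 and 126 CPM in the ascending limb and at 47.6 and 39.6 CPM in the proximal tubule (0.27, -0.21 to 0.76). Its healthy reference mattered too: sNucDrop-seq nuclei had 12.5 CPM and DroNc-seq nuclei 14.2 CPM in the proximal tubule, and against them UUO was called higher, at 1.93 (where 19.5% of genes were) and 1.75 (19.4%). The proliferating proximal tubule label stood at 96.9 CPM, called higher than the whole healthy 10x proximal tubule (1.29, where 15% of genes were) and than the UUO S1 to S3 labels (44.0 CPM, 1.14).

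**Figure D3:**
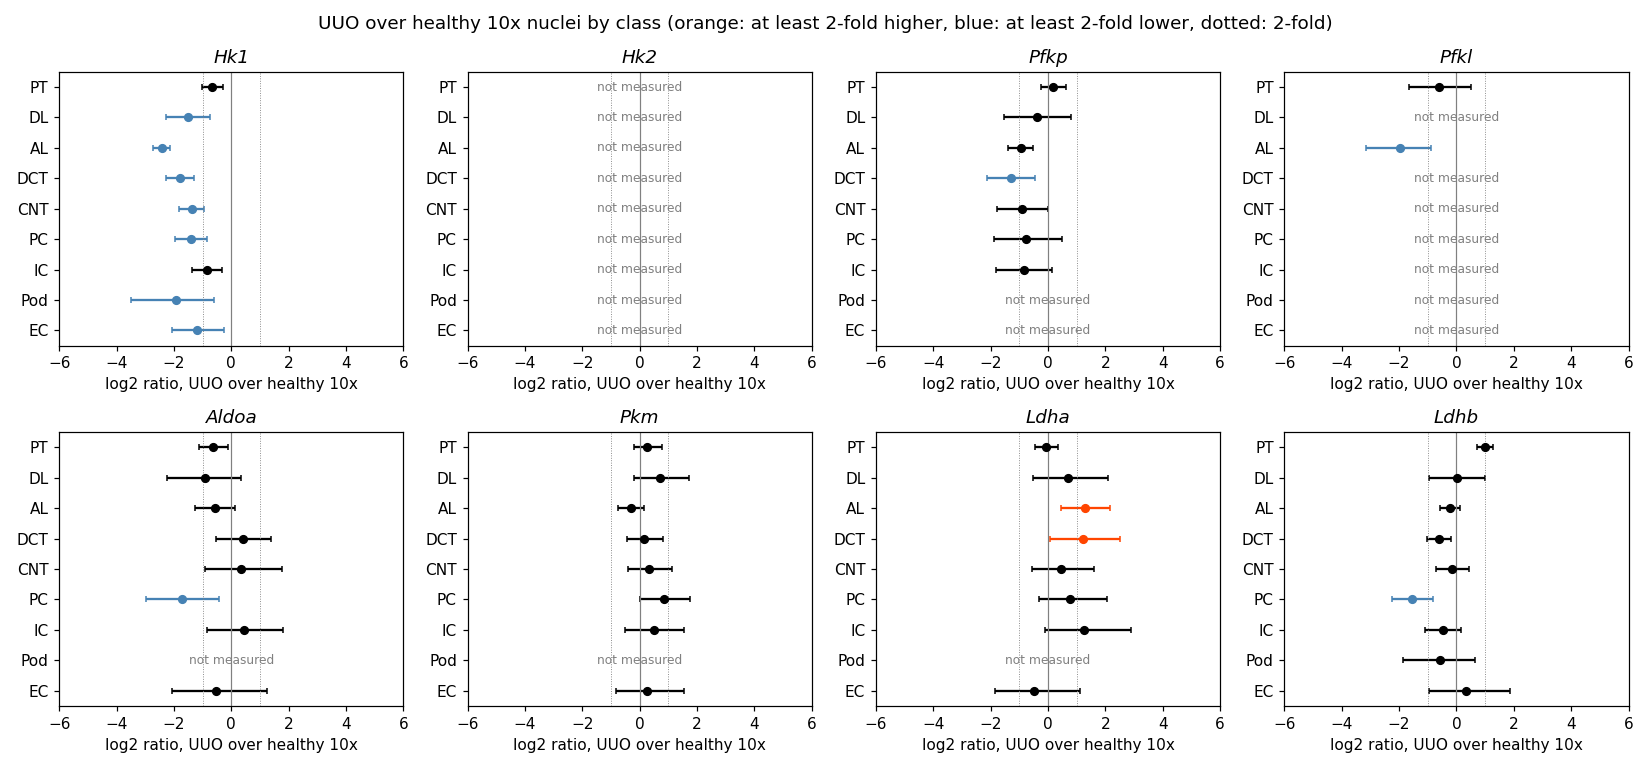
Log2 ratio of UUO to healthy 10x nuclei for each gene in 9 classes, with exact intervals and dotted lines at 2-fold; colours mark calls, and classes where a gene was not measured are named so. Hk1 lies below 0 in all 9 classes, and the 2 calls above 0 are Ldha in the ascending limb and the distal convoluted tubule.

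Ldha was called higher in the UUO ascending limb, at 63.2 CPM (47.3 to 82.6) against 26.2 CPM (15.2 to 41.9), a log2 ratio of 1.27 (0.46 to 2.15). It was also called higher in the distal convoluted tubule, at 68.5 and 29.8 CPM (1.20, 0.07 to 2.51). Intercalated cells stood at 71.4 and 29.8 CPM (1.26, -0.12 to 2.88) and principal cells at 120 and 70.1 CPM (0.77, -0.31 to 2.06). The proximal tubule stood at 57.2 and 59.8 CPM (-0.06, -0.46 to 0.35). In the ascending limb of sNucDrop-seq nuclei Ldha stood at 42.5 CPM, and the interval of the UUO ratio (0.57) held 0. DroNc-seq nuclei stood at 24.4 CPM, against which UUO was called higher (1.37, where 22.3% of genes were).

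Ldhb did not move one way. It stood at 231 CPM in the UUO and 116 CPM in the healthy 10x proximal tubule, 1.99-fold apart (log2 ratio 0.99, 0.73 to 1.26) and so just short of a call. In principal cells it was called lower, at 90.3 and 263 CPM (-1.54, -2.26 to -0.81), and in the distal convoluted tubule it stood at 209 and 320 CPM (-0.61, -1.03 to -0.19). Within the UUO proximal tubule the dedifferentiated label was highest, at 427 CPM over 117 nuclei. It was called higher than the healthy 10x proximal tubule (1.88, 1.47 to 2.28), where 11.8% of genes were. The proximal tubule ratio again depended on the reference, with 223 CPM in sNucDrop-seq and 189 CPM in DroNc-seq nuclei. Against them the UUO ratios were 0.05 and 0.29. Its ascending limb level in UUO was called lower than in both, at 172 CPM against 345 CPM (-1.01, where 24.4% of genes were) and 391 CPM (-1.19, 22.6%).

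Read as a share of the pair, Ldha was higher outside the proximal tubule in UUO than in each of the 4 healthy libraries. Over all tubule classes outside the proximal tubule it made up 32.5% of Ldha and Ldhb counts in UUO (29.0 to 36.1). Healthy kidney had 14.2% in 10x nuclei (10.9 to 18.0) and 5.91% in Drop-seq cells (4.88 to 7.08). DroNc-seq nuclei had 8.15% (6.24 to 10.4) and sNucDrop-seq nuclei 10.5% (8.05 to 13.5). The UUO interval lay clear above all 4. By class, the ascending limb had 26.9% in UUO (20.8 to 33.7) and 5.88% to 11.6% in the healthy libraries, and the distal convoluted tubule 24.7% and 3.67% to 8.51%. Nuclei labelled principal cells had 57.0% (46.3 to 67.2) and 8.20% to 21.1%, but in UUO that label was not borne out by its markers. These nuclei are part of the UUO sum of 32.5%. In the connecting tubule the UUO share of 29.2% (21.9 to 37.3) overlapped the healthy 10x share of 21.3% (10.7 to 35.7). The intervals also overlapped in intercalated cells, at 30.6% (19.6 to 43.7) and 11.8% (4.44 to 23.9), and in the descending limb, at 44.7% (30.2 to 59.9) and 33.3% (15.6 to 55.3).

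The proximal tubule did not share this. Its Ldha share was 19.8% in UUO (17.5 to 22.4), 34.0% in healthy 10x (27.6 to 40.8), 17.0% in Drop-seq, 15.4% in DroNc-seq and 20.1% in sNucDrop-seq. In each healthy library it lay above the share of the tubule outside it, and in UUO below. The UUO proximal tubule share was below that of each of the 5 distal classes, but its interval overlapped all of theirs except that of principal cells. The dedifferentiated label had the lowest share of the UUO proximal tubule labels, 9.78% (4.57 to 17.8).

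**Figure D4:**
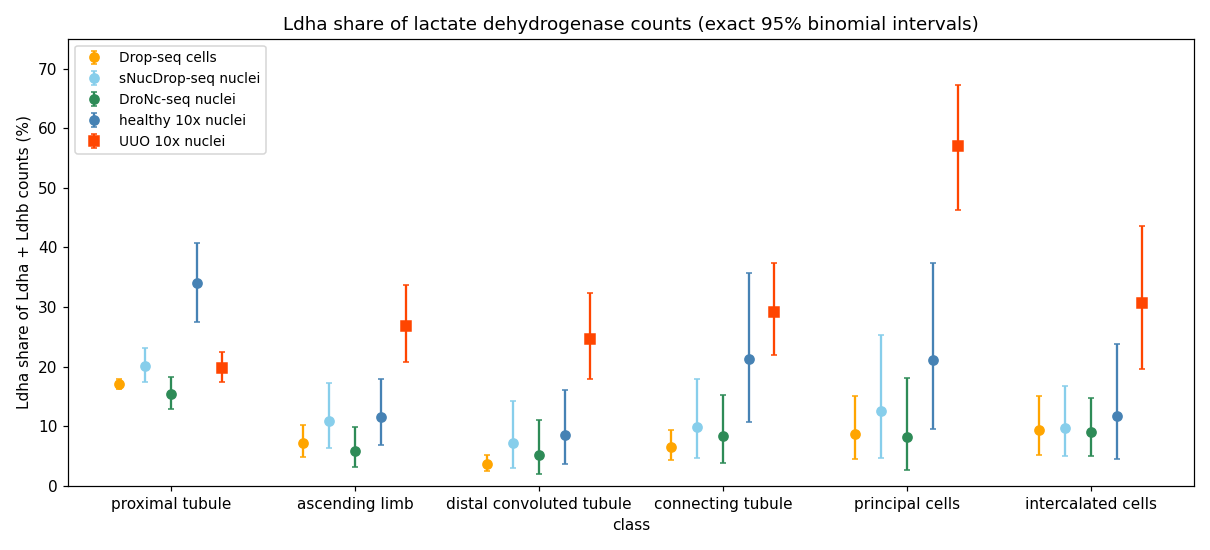
Ldha as a percent of Ldha and Ldhb counts in 6 classes and the 5 libraries (colours, UUO as squares), with exact binomial intervals. UUO is the highest library in the 5 classes outside the proximal tubule, from 24.7% to 57.0%, and lies among the healthy libraries in the proximal tubule. The 57.0% is that of the principal cell label, which its markers did not bear out in UUO.

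Genes whose class levels ran most like those of Ldha over the 18 10x classes were Snx12 (r 0.868), Lgals3 (0.859), which encodes the lectin galectin-3, and Pik3c2a (0.805). Those most like Pkm were Kdm3b (0.827), Mpzl1 (0.825) and Dock1 (0.817), and those most like Aldoa included Cox7c (0.812) and Id3 (0.784). Pfkp ran with Tab1 (0.917), Paqr5 (0.913) and Ptpn18 (0.881), and Ldhb with Ccdc141 (0.762), Tesc (0.751) and Igsf3 (0.749). Hk2, listed at 0 in one of the libraries, and Pfkl, at a mean of 14.6 CPM, were not compared. As for Hk1, these values do not separate a difference between the healthy 10x and UUO libraries from one between classes.

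The rest of the pathway was read from wider lists in the same comparison. Of 17 other glycolytic enzymes, 11 were measured in the proximal tubule and 3 were called lower in UUO, 0 higher, where 19.7% of all genes were called lower and 13.1% higher. Among the 3 were Gapdh (19.0 and 68.2 CPM) and Pgk1 (11.3 and 38.7 CPM), which act in sequence where the pathway starts to yield ATP. The list's median was -0.42, and that of all genes -0.10. All 7 measured gluconeogenesis genes were lower (19.7% of all genes), with G6pc at 2.48 and 171 CPM and Pck1 at 9.08 and 579 CPM (list median -3.30). Of the 9 other glycolytic enzymes measured in the ascending limb, 1 was higher, Adpgk (21.5 and 6.15 CPM, where 14.7% of genes were), and 4 were lower (15.9% of genes), among them Pfkm, the muscle-type phosphofructokinase (9.53 and 49.2 CPM), and Pgk1 (14.3 and 49.2 CPM).

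Of 9 measured regulators in the proximal tubule, 1 was higher, Pfkfb1 (21.7 and 6.74 CPM), and 2 were lower, including the pyruvate dehydrogenase kinase Pdk2 (9.63 and 68.2 CPM). These shares are near those of all genes there, 13.1% higher and 19.7% lower. Pfkfb3, which makes the activator of phosphofructokinase, was higher in the ascending limb (44.1 and 12.3 CPM). Of 8 genes of pyruvate entry into mitochondria, 3 were lower in both classes: Dlat, Mpc1 and Pcx (19.7% of genes in the proximal tubule, 15.9% in the ascending limb). Mpc1, a subunit of the mitochondrial pyruvate carrier, stood at 58.9 and 142 CPM in the proximal tubule and 64.4 and 303 CPM in the ascending limb. Of 9 measured transporters in the proximal tubule 5 were lower (19.7% of genes), led by the glucose transporter Slc5a2 (0.825 and 30.3 CPM, on 3 UUO counts), and 1 was higher (13.1% of genes), the lactate carrier Slc16a1 (21.5 and 7.58 CPM). Slc16a7, another monocarboxylate carrier, was called lower in the ascending limb (log2 ratio -3.75).

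The hypoxia list did not move together. In the proximal tubule 1 of 9 measured genes was higher (13.1% of all genes), Egln3, an oxygen-sensing hydroxylase that is itself a hypoxia target (28.6 and 12.6 CPM), and 4 were lower (19.7%), among them Vegfa (log2 ratio -2.96) and Ndrg1 (339 and 858 CPM). Of 7 measured in the ascending limb, Egln3 was higher (48.9 and 9.23 CPM) and Vegfa and Bnip3 were lower (14.7% and 15.9% of genes). In principal cells Egln3 stood at 397 CPM against 8.76 CPM (1 healthy count, log2 ratio 5.50, 3.01 to 10.81), with Egln1 also higher and Ndrg1 lower (13.6% and 11.3% of genes). Slc16a1 and Egln3 in the proximal tubule were named after their values were seen. Markers of injured tubule, such as Havcr1 and Krt8, stood at 117 CPM in the healthy and 4052 CPM in the UUO proximal tubule, and at 168 and 5604 CPM in the ascending limb, and their part in these results was not tested.

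Whole cells and nuclei gave different pictures of the same proximal tubule. In Drop-seq cells over sNucDrop-seq nuclei, 3 of 7 measured members were called higher, where 17.4% of genes were, and 4 lower, where 48.2% were. Ldhb stood at 1080 and 223 CPM (log2 ratio 2.27), Aldoa at 131 and 30.6 CPM (2.10) and Ldha at 222 and 56.3 CPM (1.98). Hk1 stood at 5.09 and 24.0 CPM (-2.24), Pfkp at 2.88 and 15.6 CPM (-2.44), Pkm at 4.58 and 12.5 CPM (-1.45) and Pfkl at 4.24 and 8.69 CPM (-1.03). The median of all genes was -0.93, so relative to it the last value is near the middle. Another scaling (TMM) moved that median by 1.08, after which Hk1 and Pfkp remained lower and Pfkl stood at 0.04.

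Over all genes the ratio ran with gene length. Median ratios over 5 groups of genes from the shortest span to the longest were 0.69, -0.48, -0.92, -1.43 and -1.99. Aldoa, spanning 5.52 kb, was in the shortest group, Ldha (14.2 kb) and Ldhb (17.7 kb) in the second, Pfkl (23.1 kb) and Pkm (23.0 kb) in the third, Pfkp in the fourth and Hk1 (111 kb) in the longest. Pkm did not keep its direction across classes: cells were called higher than nuclei in the ascending limb (log2 ratio 1.20, where 19.1% of genes were), the distal convoluted tubule (234 and 77.2 CPM, 1.60, 25.8%) and the connecting tubule (163 and 19.9 CPM, 3.03, 21.3%). In the comparison of UUO with healthy nuclei of the same platform the length groups differed less. Medians ran from -0.23 to 0.08 in the proximal tubule and from -0.11 to 0.17 in the ascending limb. Hk1 lay in the longest group there. Against sNucDrop-seq nuclei the medians rose with length, from -0.82 to 0.05 in the proximal tubule and from -0.45 to 0.26 in the ascending limb. Against DroNc-seq nuclei they ran from -0.49 to 0.03 and from -0.33 to 0.25, highest in the longest group. How far length adds to the UUO ratios of single genes against these references was not tested.

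**Figure D5:**
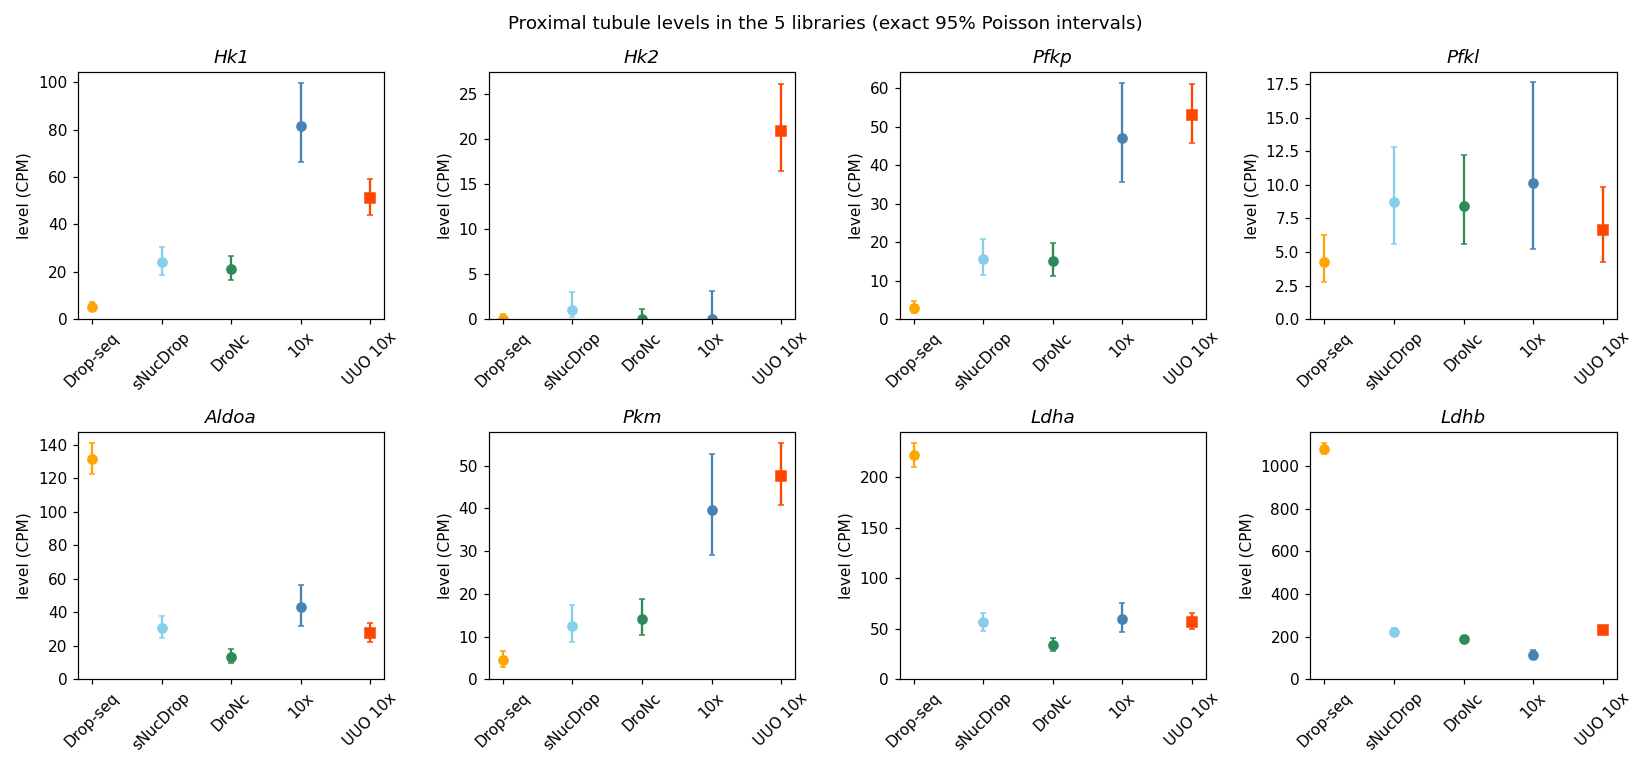
Proximal tubule level of each gene in the 5 libraries, in CPM on linear axes from 0 with exact Poisson intervals (UUO as squares). Aldoa, Ldha and Ldhb are highest in the Drop-seq cells, Hk1, Pfkp and Pkm are lowest there, and Hk2 is above 1.04 CPM in UUO alone.

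The genes lie apart in the genome (GENCODE annotation of mm10): Hk1 at chr10:62268855-62379908, Hk2 at chr6:82725025-82774454, Pfkp at chr13:6579768-6648777, Pfkl at chr10:77986947-78010083, Aldoa at chr7:126795234-126800751, Pkm at chr9:59656368-59679375, Ldha at chr7:46841475-46855627 and Ldhb at chr6:142490249-142507957. Whether reads were counted by strand is not given, so a gene and an antisense neighbour cannot be told apart. Hk1os, antisense to Hk1, had at most 3 counts in any library, and Gm17034, antisense to Hk2, had 1 count in UUO and 0 elsewhere. Fam57b, on the strand opposite to Aldoa, had at most 3. Pitrm1 shares 748 bases with Pfkp on the opposite strand and was better counted, with 125 counts in Drop-seq, where Pfkp had 51, and 30 in healthy 10x and 50 in UUO nuclei, where Pfkp had 282 and 410. How many Pfkp reads lie in the shared bases was not tested.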

How the data were processed

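The values were UMI counts per gene and barcode in 2 tables deposited by the authors, raw and made with zUMIs per the deposited readme. STAR 2.5.3a and mm10 are named in the submitters' processing notes. The sources used here do not give intron counting, strand use, gene annotation or filters. Cell classes were the labels of the authors' deposited annotation, with subtypes summed. 0 value columns belonged to no sample. All annotated barcodes were kept, without a doublet caller, and an alternative left out those above 3 times their class's median UMIs.

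Counts were summed per class and library and scaled to CPM. Named were all 8 members, up to 4 genes per wider list with the largest ratio clear of 0, and per member the 3 genes of highest correlation of log2(CPM + 10) over classes with at least 100000 UMIs, among genes of at least 20 CPM on average. Some genes that these rules name are left out of the text. The members and lists were chosen with earlier results of these data known. The ratio's interval was tested on simulated data. Python 3.11.15 was used with scipy 1.17.1 (intervals), numpy 2.4.6, matplotlib 3.10.9 and pandas 2.3.3, and edgeR 4.0.16 under R 4.3.3 gave TMM factors.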

Additional observations from a re-analysis of the deposited data

Results flagged for a closer look

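Ldhb changed in opposite directions across segments between UUO and healthy 10x nuclei: the log2 ratio was 0.99 in the proximal tubule, -0.61 in the distal convoluted tubule and -1.54 in principal cells, each with an interval clear of 0. The principal cell label was not borne out by its markers in UUO. The proximal tubule ratio depended on the reference: UUO stood at 231 CPM and healthy 10x at 116 CPM, but sNucDrop-seq nuclei at 223 CPM and DroNc-seq nuclei at 189 CPM. In the distal convoluted tubule and principal cells these other healthy nuclei also stood above UUO. The difference between segments was not tested, with 1 library per group.

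The contrast of distal over proximal tubule had 1 sign in all 4 healthy libraries and the other sign in UUO for both lactate dehydrogenase genes. For Ldha the log2 ratios were -0.84 (Drop-seq cells), -0.80 (healthy 10x nuclei), -0.41 (sNucDrop-seq nuclei) and -0.24 (DroNc-seq nuclei), and 0.41 in UUO nuclei. The Ldha intervals of sNucDrop-seq and DroNc-seq nuclei held 0. For Ldhb the ratios were 0.88, 0.98, 0.79 and 1.01 in the same order, and -0.49 in UUO. The UUO distal sum holds the principal cell label, which its markers did not bear out. The difference between UUO and the healthy libraries was not tested either.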

How the results depend on the processing

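Over all pairs in the UUO and healthy 10x comparison, 2 were called higher and 11 lower. Calls higher numbered 4 with TMM scaling, 0 of 18 measured with a count minimum of 100 (4 lower) and 1 with the mean of barcode CPM. They numbered 14 with sNucDrop-seq nuclei as reference (5 lower) and 15 with DroNc-seq nuclei (3 lower). With those 2 references 17.8% to 26.5% of genes were called higher in these classes, and 16.9% to 32.9% lower. Shares of all genes called under the other settings are not given here. TMM kept the sign of 50 of 51 pairs and moved the median of all genes by up to 0.32 (endothelium). The other nuclei kept the sign of 30 of 47 and 31 of 46 pairs. Reversed under sNucDrop-seq nuclei were Pfkp in the distal convoluted tubule (0.40) and Hk1 in the connecting tubule (0.17), principal cells (0.62) and endothelium (2.10), and under DroNc-seq nuclei Hk1 in the descending limb (1.11, a label whose markers were not highest there), principal cells (0.25) and endothelium (1.39). The cause was not tested. Leaving out the 23 shared barcode sequences, chosen after seeing the data, gave 3 calls higher and 11 lower. For cells over nuclei, calls lower went from 4 of 7 measured (48.2% of genes) to 2 with TMM, where Pfkl stood at 0.042. With a count minimum of 100 they were 0 of 3 measured. The healthy Ldha share in the proximal tubule (34.0%) was 20.1%, 15.4% and 17.0% in the other healthy libraries, and that in the ascending limb (11.6%) was 5.88% in DroNc-seq. No paired analysis was possible because each group had 1 library, and no replicate could be left out. Classes of few nuclei limit what depth can show: podocytes had 98180 UMIs in UUO.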

Other observations

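The juxtaglomerular label of UUO held at most 9 counts of any of the 8 genes. The UUO fibroblast label Fib.1 had the highest Aldoa level among UUO classes of at least 100000 UMIs, at 86.1 CPM (55.2 to 128), with overlapping intervals down the order, and the proximal tubule the lowest, at 27.8 CPM (22.6 to 33.8).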
